A study of Arabidopsis thaliana with 24 samples.

Results

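Transcript levels in the Arabidopsis thaliana shoot apex were compared between subjective dawn and subjective dusk, in 8 of the 24 libraries of a time course of shoot apex and true leaves. The plants were wild-type Col-0, raised on soil under cycles of 12 h light and 12 h darkness over 14 days and then left in constant light. Subjective dawn was the 4 libraries of 94 and 98 h in constant light (ZT94 and ZT98), and subjective dusk the 4 libraries of 106 and 110 h (ZT106 and ZT110), with 2 replicates at each time. On a 24 h cycle these times fall at hours 22 and 2 and at hours 10 and 14, so each side straddles the moment when the lights had come on or gone off during the 14 days. The light was the same at all of these times. Apices were cut from 6 to 10 frozen seedlings for each library, so every library is a pool of plants and of the cell types that a dissected apex holds. The labels describe 2 independent experiments but not which replicate number came from which, and the column names carry the word mock although the labels describe no treatment.

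The plant circadian clock is a set of interlocked transcription loops. At dawn the MYB-like factors CCA1 and LHY are made and repress evening genes, the PRR proteins follow one after another through the day and repress CCA1 and LHY, and in the evening ELF3, ELF4 and LUX form a repressor of daytime genes. Much of metabolism, light signalling and growth is known to be timed by these loops, and the oscillation persists in constant light.

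Short motifs upstream of the genes stood at different frequencies on the dawn and dusk sides. The evening element is the short motif AAAATATCT, known as a binding site of CCA1, LHY and the related RVE factors, and it was searched on both strands in the 500 bases before the gene start. Dawn-high and dusk-high genes are those that passed the test between the sides described after the sequences. The element was present in 4.44% of the 18463 tested genes with such a window, in 4.46% of dawn-high genes (18 of 404) and in 17.7% of dusk-high genes (97 of 548). Among dusk-high genes that differed at least 2-fold the share was 30.2% (29 of 96), and among the 10 dusk-high members of a list of evening clock genes 6 had it. The stretches below are from RefSeq on the TAIR10.1 build, each read 5′ to 3′ on the strand of its gene, and capitals mark the evening element, which appears as AGATATTTT where it lies on the other strand. All of these genes were dusk-high, but the stretches are a selection. Other named dusk-high genes with the element, among them CAT3, BBX22, PORB, GRP8, AT4G30650 and AT5G62360, are not shown. The COR27 stretch holds another match, in lower case, near its end.
FKF1, chr1:25508246-25508294, gene on the plus strand: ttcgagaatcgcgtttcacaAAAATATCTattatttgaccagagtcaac
FKF1, chr1:25508433-25508481, gene on the plus strand: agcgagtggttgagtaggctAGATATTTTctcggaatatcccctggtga
PRR5, chr5:8358810-8358858, gene on the minus strand: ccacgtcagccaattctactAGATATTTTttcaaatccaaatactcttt
PRR5, chr5:8358705-8358753, gene on the minus strand: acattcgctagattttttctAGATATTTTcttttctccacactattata
COR27, chr5:17199921-17199969, gene on the minus strand: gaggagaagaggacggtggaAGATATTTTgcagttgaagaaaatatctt
LUX, chr3:17182969-17183017, gene on the plus strand: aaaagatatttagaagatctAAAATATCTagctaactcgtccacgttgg
BOA, chr5:24003825-24003873, gene on the plus strand: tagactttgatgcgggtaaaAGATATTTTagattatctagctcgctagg
TOC1, chr5:24674792-24674840, gene on the plus strand: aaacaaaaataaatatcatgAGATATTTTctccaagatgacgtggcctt
GRP7, chr2:9266560-9266608, gene on the minus strand: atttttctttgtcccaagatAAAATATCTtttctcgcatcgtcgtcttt
CCL, chr3:9827569-9827617, gene on the plus strand: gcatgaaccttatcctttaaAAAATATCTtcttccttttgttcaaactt
ISA3, chr4:5783850-5783898, gene on the plus strand: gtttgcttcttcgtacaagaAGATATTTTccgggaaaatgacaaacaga
PWD, chr5:9261426-9261474, gene on the plus strand: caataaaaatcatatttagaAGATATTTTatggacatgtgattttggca

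The G-box, CACGTG, is a site bound by bHLH and bZIP factors, among them the PIF and HY5 proteins of light signalling. It stood upstream of 10.2% of the tested genes with a window, 20.5% of dawn-high genes and 12.8% of dusk-high genes. Among genes that differed at least 2-fold the share was above that of all tested genes on both sides. It was 24.4% of dawn-high (19 of 78) and 17.7% of dusk-high genes (17 of 96). Among the 11 dawn-high members of a list of morning clock genes 5 had it, and those stretches follow with the G-box in capitals.
CCA1, chr2:19245378-19245423, gene on the plus strand: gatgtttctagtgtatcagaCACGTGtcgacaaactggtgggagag
LHY, chr1:37926-37971, gene on the minus strand: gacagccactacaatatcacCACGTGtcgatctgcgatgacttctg
LNK3, chr3:3923324-3923369, gene on the plus strand: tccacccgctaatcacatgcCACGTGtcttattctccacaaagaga
PRR7, chr5:642206-642251, gene on the minus strand: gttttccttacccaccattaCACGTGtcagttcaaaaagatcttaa
RVE1, chr5:5693078-5693123, gene on the minus strand: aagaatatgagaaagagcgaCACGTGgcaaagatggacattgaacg

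The CCA1 binding site AAAAATCT, first known from a promoter of a light-harvesting gene, was upstream of 12.5% of all tested genes with a window, of 13.6% of dawn-high genes (55 of 404) and of 16.1% of dusk-high genes (88 of 548). It was upstream of 5 of the 14 dawn-high genes of the light-harvesting antenna and of 3 of the 9 dusk-high genes of starch breakdown. It is in capitals in the stretches from the antenna genes below.
LHCB1.1, chr1:10476020-10476067, gene on the minus strand: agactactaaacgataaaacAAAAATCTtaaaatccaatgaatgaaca
LHCB2.3, chr3:10255583-10255630, gene on the plus strand: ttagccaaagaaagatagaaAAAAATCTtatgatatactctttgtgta

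An evening element also stood upstream of some dawn-high genes, among them 7.69% (6 of 78) of those that differed at least 2-fold. Of the 11 dawn-high morning clock genes 1 had it, RVE7, with matches on both strands. The stretches of the CONSTANS-like gene COL2 and the B-box gene BBX28 are given here with the element in capitals. The letters of the evening element and of the CCA1 binding site do not allow matches of these motifs to overlap.
COL2, chr3:489628-489676, gene on the minus strand: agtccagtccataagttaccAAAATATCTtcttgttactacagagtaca
BBX28, chr4:13675124-13675172, gene on the plus strand: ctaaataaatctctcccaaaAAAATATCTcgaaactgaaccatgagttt
The morning element CCACAC was upstream of 12.2% of tested genes, 17.1% of dawn-high and 11.7% of dusk-high genes. The telo-box AAACCCTA, common in ribosomal protein promoters, was upstream of 6.61%, 2.97% and 4.56%. A match is a run of letters in a window and was not tested as a binding site in these samples.

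**Figure D1:**
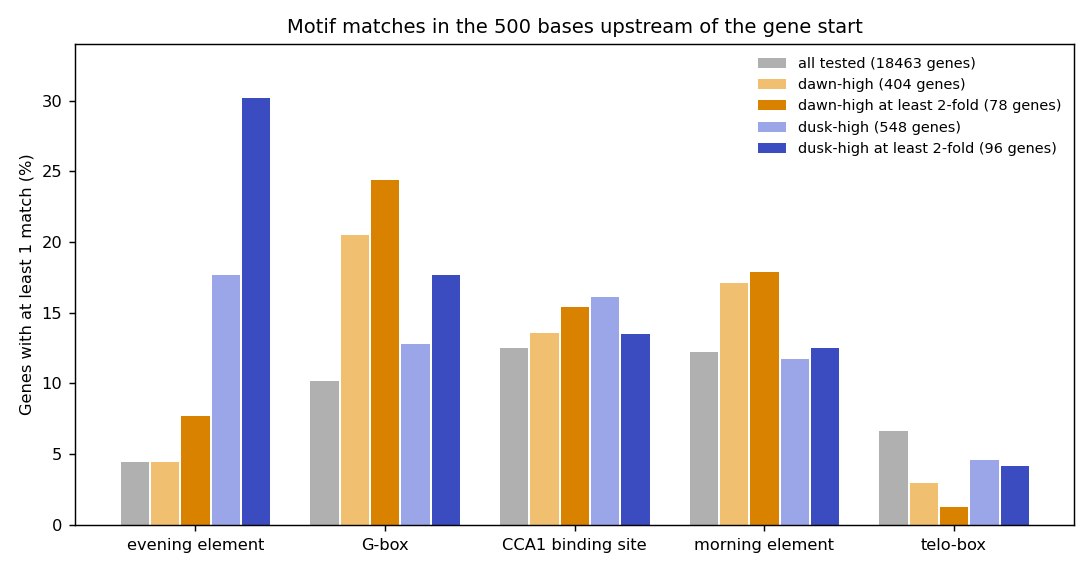
Share of genes (%, vertical axis) with at least 1 match of each motif in the 500 bases before the gene start, for all tested genes, dawn-high and dusk-high genes, and those of each direction that differed at least 2-fold. The evening element stands at 4.44% of all tested genes and 30.2% of dusk-high genes with at least a 2-fold difference, and the G-box is most frequent on the dawn side.

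Expression was deposited as FPKM, fragments per kilobase of transcript per 1 M mapped. Genes with at least 1 FPKM in at least 2 of the 12 shoot apex libraries were tested, 19275 of 33323, on the scale of log2(FPKM + 1), and differences below are subjective dawn minus subjective dusk on that scale with the standard error of the fit. This scale understates the change of genes with few reads. A gene was called when its limma p, adjusted by Benjamini-Hochberg over all tested genes, was under 0.05. By this rule 979 genes (5.08% of those tested) were called, of which 419 (2.17%) were dawn-high and 560 (2.91%) dusk-high, and these shares are the background for the counts of list members below. Of all tested genes 11.2% had 4 dawn libraries that did not overlap the 4 dusk libraries. The same held for 331 dawn-high and 508 dusk-high genes. Most differences were modest: the median was 0.62 log2 among dawn-high genes and 0.55 among dusk-high genes. A difference of at least 2-fold was seen for 80 dawn-high and 100 dusk-high genes, and of at least 4-fold for 14 in each direction. Since each library is a dissected organ, fewer cells of a type and less RNA per cell cannot be told apart in any of these values.

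Replicate numbers were taken to pair the libraries, which the labels do not state, and the main fit did not use this pairing. With the number as a block the count rose to 1973, 796 dawn-high and 1177 dusk-high, including all 979. The count was 586 without ZT94 replicate 1, 555 without ZT94 replicate 2, 539 without ZT98 replicate 2, 608 without ZT110 replicate 1 and 581 without ZT110 replicate 2, and it lay between 656 and 880 without each of the other 3. The fits without 1 library shared 454 calls. The earlier time of each side alone (ZT94 against ZT106) gave 716 calls, the later time alone (ZT98 against ZT110) 402, and a fit to the 8 libraries as 2 groups of 4 gave 713. The counts for gene lists under these and the other settings are given below where they moved by over 1.5 times. The balance of directions depended on scaling. As deposited, 42.8% of calls were dawn-high and the median gene stood at -0.036, whereas after the libraries were rescaled to a common median ratio 53.9% of 1040 calls were dawn-high, with 872 of the 979 called in the same direction.

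The libraries were much alike. Replicates correlated at 0.979 to 0.986 (Spearman, across genes), the 10 most abundant genes took 3.68% to 4.95% of summed FPKM, and depth, which the files do not give, was estimated from the step between low FPKM values at 7.62 to 14.8 M reads. Marker genes of the meristem and organ boundary (STM, KNAT1, CUC1 and others) summed to 237.8 to 274.8 FPKM at dawn and 222.1 to 297.0 at dusk, and none of the 7 tested was called. Root markers summed to 39.2 to 41.5 FPKM at dawn and 38.4 to 43.6 at dusk, phloem markers to 9.21 to 18.0 and 9.98 to 19.4, and the 5 flower markers to at most 1.52. Xylem markers summed to 25.7 to 32.6 FPKM at dawn and 33.4 to 40.2 at dusk, with none of the 3 called. No marker of any list was at 0 in all 8 libraries. Leaf mesophyll markers summed to 483.0 to 597.3 FPKM at dawn and to 368.6 to 428.0 at dusk without overlap. Of these 8 markers RCA, PSBO2 and CAT2, themselves genes of photosynthesis and photorespiration, were dawn-high. FBA5 was dusk-high and the other 4 were not called. What part the share of leaf cells has in the photosynthesis results below was not tested.

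**Figure D2:**
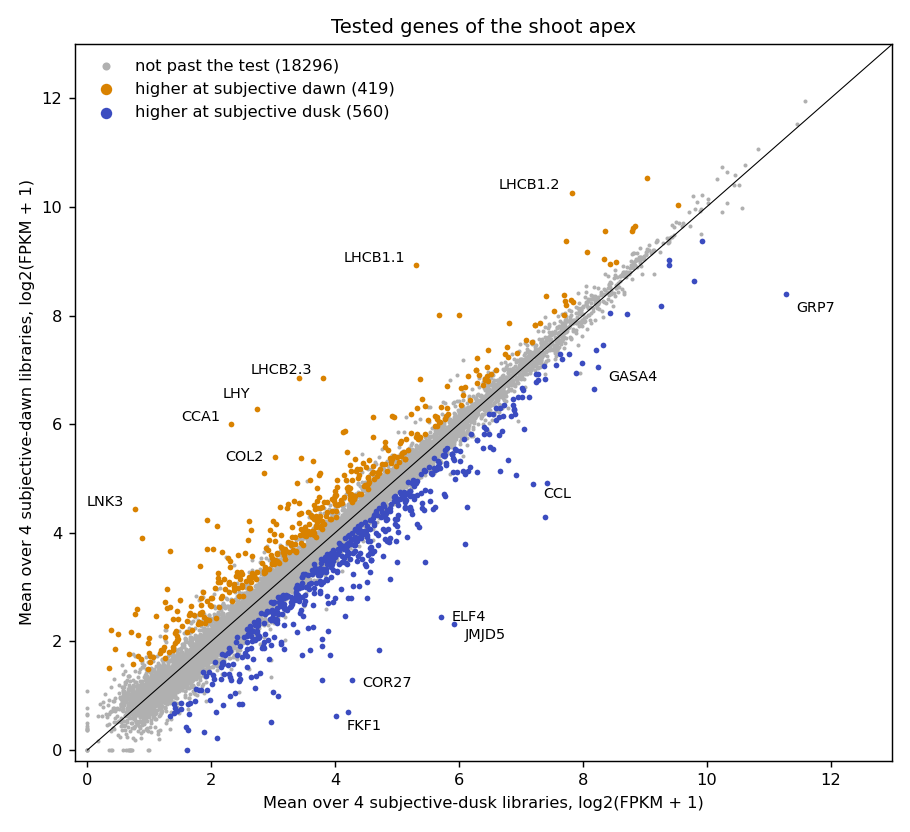
Mean of the 4 subjective-dawn libraries (vertical) against the mean of the 4 subjective-dusk libraries (horizontal) for 19275 tested genes, in log2(FPKM + 1), with the line of equality. The 419 dawn-high genes lie above the line, led by clock and antenna genes, and the 560 dusk-high genes below it, where the RNA-binding protein gene GRP7 is the most abundant of those labelled.

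Among the morning clock genes 11 of the 12 tested were dawn-high and none dusk-high, with a median difference of 2.24 against -0.036 over all tested genes. PRR9 did not reach the level filter. CCA1 (AT2G46830) and LHY (AT1G01060), the partner MYB-like repressors at the core of the loop, differed most. CCA1 transcripts stood at 79.6 and 74 FPKM at ZT94 and 48.1 and 49.4 at ZT98, against 2.27 and 2.64 at ZT106 and 5.7 and 5.43 at ZT110. LHY stood at 105 and 98.6 FPKM at ZT94 and 50.5 and 52.3 at ZT98, against 1.88 and 2.34 at ZT106 and 10.8 and 7.66 at ZT110. Both genes were highest at ZT94, had dropped by ZT98 and were lowest at ZT106, and the dawn and dusk libraries were far apart. The differences were 3.71 ± 0.075 and 3.71 ± 0.12 log2, with limma adjusted p of 1.13e-08 and 1.92e-07.

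The LNK genes encode co-activators that work with the RVE factors on evening genes. LNK2 (AT3G54500) was at 119.5 and 102 FPKM at ZT94 and 119 and 113 at ZT98, against 11.7 and 9.45 at ZT106 and 9.38 and 8.28 at ZT110. LNK3 (AT3G12320) was at 19.9 and 16.6 FPKM at ZT94 and 21 and 25 at ZT98, against 0.789 and 0.552 at ZT106 and 0.881 and 0.552 at ZT110. Unlike CCA1 and LHY, these were as high at ZT98 as at ZT94 or higher, and they stayed low at both dusk times. The differences were 3.43 ± 0.14 for LNK2, 3.66 ± 0.12 for LNK3, 3.01 ± 0.11 for LNK4 and 2.09 ± 0.11 for LNK1.

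RVE8 (AT3G09600), an activator of evening genes and a relative of CCA1, was at 45.4 and 37.7 FPKM at ZT94 and 26.9 and 23 at ZT98, against 2.69 and 3.25 at ZT106 and 11.8 and 7.01 at ZT110. RVE1 (AT5G17300), which links the clock to auxin, was at 12.8 and 13.3 FPKM at ZT94 and 9.15 and 12.6 at ZT98, against 2.18 and 2.34 at ZT106 and 3.82 and 2.86 at ZT110. Their dawn libraries all lay above their dusk libraries, and in both genes the ZT110 values were above those at ZT106. The differences were 2.39 ± 0.16 and 1.78 ± 0.11, and smaller ones were found for the related RVE4 (0.72 ± 0.10) and RVE7 (0.64 ± 0.10).

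PRR7 (AT5G02810), a repressor of CCA1 and LHY, was at 11.5 and 9.6 FPKM at ZT94 and 28.5 and 27.3 at ZT98, against 16.1 and 13 at ZT106 and 4.86 and 4.73 at ZT110. It reached 38.4 and 33.1 FPKM at ZT102, between the sides, and its ZT94 libraries were below its ZT106 libraries. The difference of 0.94 ± 0.087 over both times of each side (limma adjusted p = 0.000184) became -0.43 when ZT94 was set against ZT106 alone. RVE2 (AT5G37260) was the exception in the list, with values of 34.1 and 27.8 FPKM at ZT94, 13.2 and 12.3 at ZT98, 14.3 and 12.2 at ZT106 and 33.7 and 26.7 at ZT110 and a difference of -0.0060. Its highest values were the 53 and 39.6 FPKM of ZT90, and it was high at the later dusk time and the earlier dawn time. With ZT94 against ZT106 alone its difference was 1.16.

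Among the evening clock genes 10 of 14 tested were dusk-high and none dawn-high, with a median difference of -1.45. JMJD5 (AT3G20810), which encodes a jumonji-domain protein that affects clock period, differed most, at 65.3 and 67.7 FPKM at ZT106 and 51.6 and 54.1 at ZT110, against 5.35 and 4.37 at ZT94 and 3.56 and 2.58 at ZT98. ELF4 (AT2G40080), part of the evening complex, was at 64.2 and 58 FPKM at ZT106 and 42.7 and 39.9 at ZT110, against 6.79 and 4.46 at ZT94 and 2.68 and 3.88 at ZT98. In both genes the lowest dusk library was several times the highest dawn library. The differences were -3.63 ± 0.10 and -3.28 ± 0.15, with limma adjusted p of 6.26e-08 and 1.46e-06.

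FKF1 (AT1G68050) is the blue-light receptor and F-box protein that removes CDF repressors of flowering, and its upstream stretch holds the evening element on both strands. Its transcripts stood at 19.1 and 23.8 FPKM at ZT106 and 7.92 and 9.46 at ZT110, against 0.421 and 0.346 at ZT94 and 0.79 and 0.641 at ZT98. COR27 (AT5G42900), a cold-regulated gene that also acts on the clock, was at 23.1 and 24.4 FPKM at ZT106 and 12.2 and 13.3 at ZT110, against 1.67 and 1.83 at ZT94 and 1.1 and 1.22 at ZT98. Dawn values were under 2 FPKM in both, and dusk values peaked at ZT106. The differences were -3.25 ± 0.093 and -2.92 ± 0.077.

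The pseudo-response regulator PRR5 (AT5G24470) was at 13.8 and 15.4 FPKM at ZT106 and 6.83 and 8.37 at ZT110, against 2.27 and 2.15 at ZT94 and 2.39 and 3.58 at ZT98, and 15.1 and 16.6 at ZT102. Its relative TOC1 (AT5G61380), a repressor of CCA1, was at 54.6 and 48.5 FPKM at ZT106 and 45.4 and 43.5 at ZT110, against 24.2 and 23.4 at ZT94 and 20.03 and 17.2 at ZT98. LUX (AT3G46640), the DNA-binding member of the evening complex, was at 46.7 and 37 FPKM at ZT106 and 29.3 and 26 at ZT110, against 14.8 and 15.6 at ZT94 and 14.1 and 12.1 at ZT98. All 3 had separate dawn and dusk libraries, with PRR5 already high at ZT102 and the other pair highest at ZT106. The differences were -1.70 ± 0.11, -1.15 ± 0.081 and -1.21 ± 0.11. PRR3 (-2.15 ± 0.12), the LUX homologue BOA (-1.75 ± 0.11) and ELF3 (-0.85 ± 0.072), the scaffold of the evening complex, complete the 10.

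The other 4 tested evening members were not called. GI (AT1G22770), a partner of FKF1, was at 10.7 and 10.6 FPKM at ZT106 and 3.4 and 5.17 at ZT110, against 3.35 and 3.82 at ZT94 and 7.85 and 7.57 at ZT98. Its highest values were 15.2 and 15.6 at ZT102 and the sides overlapped, with a difference of -0.30 ± 0.11 (limma adjusted p = 0.167). With ZT98 against ZT110 alone the GI difference was 0.74. The F-box genes ZTL and LKP2, known for control of clock proteins after they are made, had differences of 0.0052 ± 0.068 and -0.074 ± 0.073, and TCP21, a regulator of CCA1, had 0.020 ± 0.12.

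**Figure D3:**
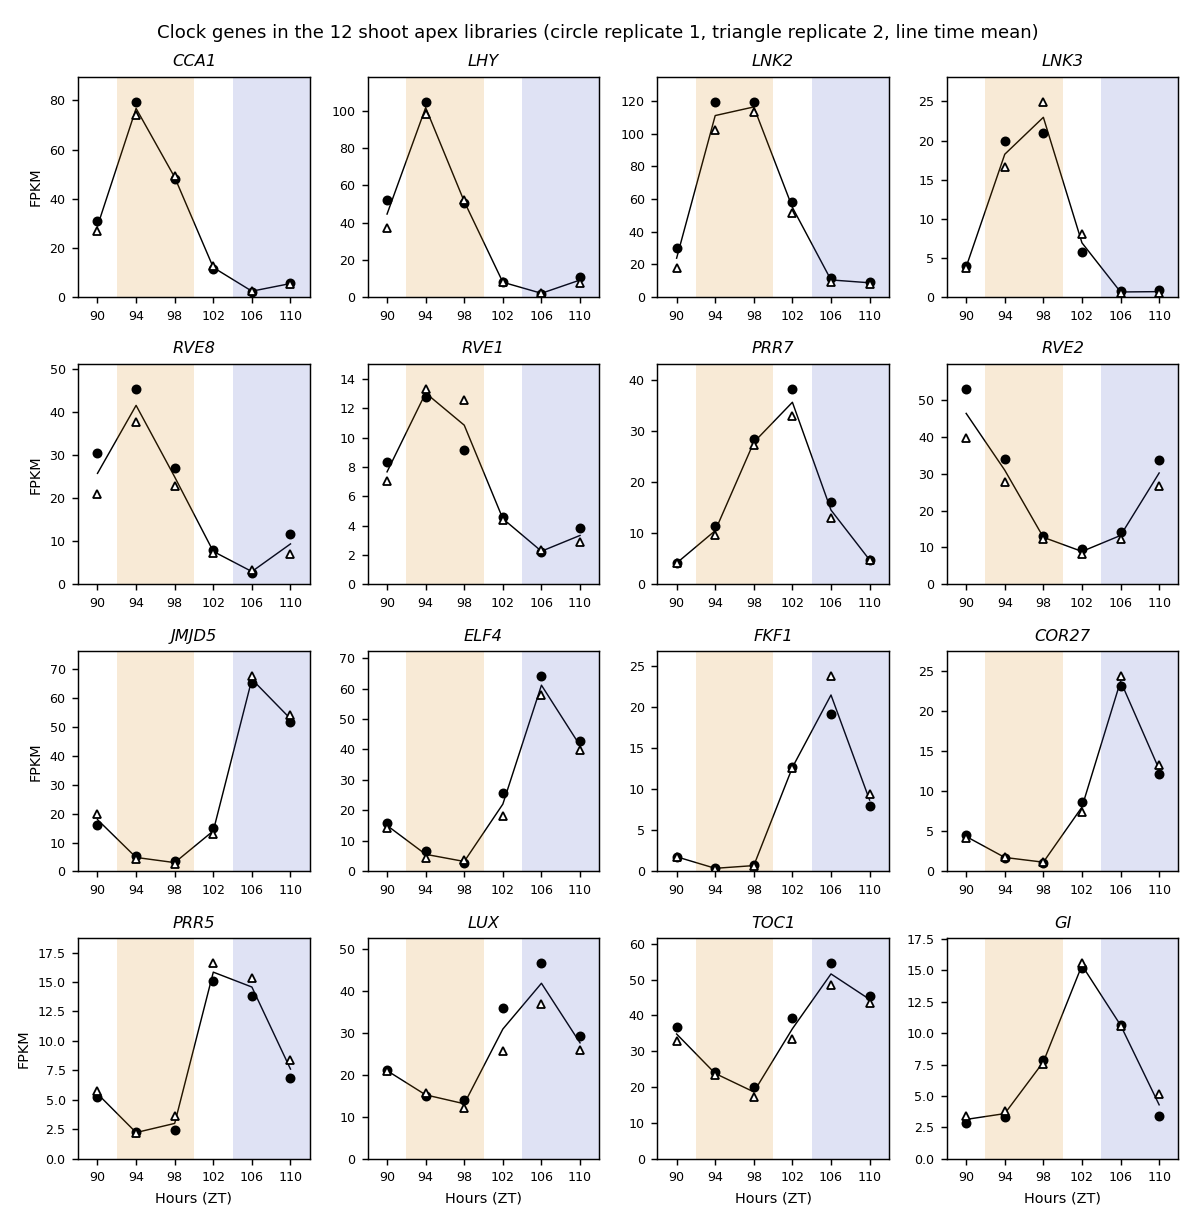
FPKM (vertical, from 0) against hours in constant light (horizontal) for 16 clock genes in the 12 shoot apex libraries. Each panel has its own scale, circles and triangles are replicates 1 and 2, the line joins the time means, and orange and blue bands mark the dawn and dusk times. Genes such as CCA1 and JMJD5 peak within opposite bands, while PRR7, RVE2 and GI peak outside or at the edge of them.

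The glycine-rich RNA-binding protein GRP7 (AT2G21660), which binds its own transcript and regulates splicing, was the most abundant of the genes that differed at least 4-fold towards dusk. It was at 3144 and 3691 FPKM at ZT106 and 1495 and 1599 at ZT110, against 308 and 377 at ZT94 and 326 and 332 at ZT98. Its difference was -2.77 ± 0.11 (limma adjusted p = 7.07e-07), and its upstream window holds the evening element 3 times, of which the match nearest the gene is printed above. GRP8, its close homologue, had a difference of -0.77 ± 0.13 with overlapping sides. The catalase genes went in opposite directions. CAT2, the main photorespiratory catalase, was dawn-high (15.5 ± 2.16 FPKM at dawn and 6.73 ± 1.99 at dusk, mean ± SD, n = 4 libraries a side, 1.12 ± 0.14 log2). CAT3 was dusk-high with overlapping sides (484 ± 139 FPKM at dawn and 669 ± 189 at dusk, n = 4, -0.47 ± 0.10 log2), a call lost in 6 of the 8 fits without 1 library, those without ZT106 replicate 1, ZT98 replicate 1 and each of the 2 ZT94 and 2 ZT110 libraries. The 4 calls of the list that holds these genes became 1 with ZT98 against ZT110 alone, where CAT3 turned to 0.21, and 2 with 2 groups of 4.

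Other genes with the largest dusk-high differences are less well described. AT1G07050, annotated as a CCT motif family protein, was at 27.8 and 18.8 FPKM at ZT106 and 13.5 and 9.64 at ZT110, against 0.997 and 0.729 at ZT94 and 0.525 and 0.253 at ZT98. CCL (AT3G26740), a CCR-like gene known as a clock output, was at 187 and 219.6 FPKM at ZT106 and 87 and 86.8 at ZT110, against 12.2 and 13.4 at ZT94 and 39.8 and 50.2 at ZT98. AT2G21130, a cyclophilin-type isomerase gene, was at 61.5 and 72.1 FPKM at ZT106 and 65.1 and 71.9 at ZT110, against 19.7 and 15.3 at ZT94 and 9.82 and 6.91 at ZT98. The first pair peaked at ZT106 and AT2G21130 was as high at ZT110 as at ZT106. The dawn libraries of each lay below all of its dusk libraries, which the rule for naming the largest differences required. Their differences were -3.42 ± 0.19, -2.41 ± 0.11 and -2.39 ± 0.12. AT1G56300, annotated with a DnaJ domain (-2.85 ± 0.17), AT4G30650, of a low temperature and salt responsive family (-2.45 ± 0.14), AT4G32340, with TPR repeats (-2.45 ± 0.16) and COR15B (-2.31 ± 0.26) make up the rest of the 12 largest.

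Of 18 tested genes of flowering time and day length 6 were dawn-high and 1 dusk-high, with a median of 0.24. COL2 (AT3G02380), a CONSTANS-like B-box gene, was at 49.2 and 51.7 FPKM at ZT94 and 29 and 33.5 at ZT98, against 5.57 and 5.84 at ZT106 and 8.42 and 8.72 at ZT110, so its 4 dawn libraries stood well above its dusk libraries (2.34 ± 0.066). COL5 (1.77 ± 0.12) and COL1 (1.13 ± 0.17) were also dawn-high. So were CDF2 (1.56 ± 0.12), CDF3 (1.36 ± 0.096) and CDF1 (1.05 ± 0.10), whose Dof proteins repress CONSTANS and are the known targets of FKF1. CONSTANS itself was not called (0.38 ± 0.11, limma adjusted p = 0.0875). SOC1, an integrator of flowering signals at the apex, was dusk-high by -0.44 ± 0.10. That call was lost after rescaling, and in every fit without 1 library except that without ZT106 replicate 1.

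Light signalling genes followed with 14 of 35 tested dawn-high and 1 dusk-high (median 0.31). B-box genes led them. BBX25 (AT2G31380), a repressor of seedling light responses, was at 47 and 42.4 FPKM at ZT94 and 35.9 and 36.7 at ZT98, against 9.33 and 6.73 at ZT106 and 13.8 and 9.92 at ZT110. BBX28 (2.27), BBX30 (1.77), BBX18 (1.67), BBX24 (1.49) and BBX19 (1.27) differed in the same direction, beside 1.95 ± 0.12 for BBX25. The growth-promoting bHLH factors PIF4 and PIF5 were dawn-high too, by 1.41 ± 0.10 and 1.42 ± 0.10. PIF4 (AT2G43010) was at 10.1 and 9.46 FPKM at ZT94 and 21.2 and 26.8 at ZT98, against 13.3 and 12 at ZT106 and 1.42 and 2.15 at ZT110, and at 29.3 and 31.6 at ZT102. Its sides overlapped, since the ZT106 libraries were above the ZT94 libraries, and with ZT94 against ZT106 alone its difference was -0.34. The bZIP gene HYH (1.34), the photomorphogenesis repressor genes SPA3 (0.96), SPA1 (0.45) and SPA4 (0.32), the UV-B repressor gene RUP2 (0.97) and PIF1 (0.46) complete the 14. BBX22 was dusk-high (-0.43 ± 0.091), a call that remained in the fit without ZT106 replicate 2 and in none of the other 7 fits without 1 library. None of 6 shade-response genes was called, and their differences lay between -0.15 and 0.45. Without ZT106 replicate 1 the list had 1 call.

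Genes of the light-harvesting antenna, which bind most of the chlorophyll of the photosystems, were dawn-high in 14 of 20 tested cases and dusk-high in none (median 1.05). The calls numbered 15 with ZT98 against ZT110 alone, 6 with ZT94 against ZT106 alone and 9 with 2 groups of 4. LHCB1.2 (AT1G29910) was at 814 and 894 FPKM at ZT94 and 1394 and 1779 at ZT98, against 309.9 and 399 at ZT106 and 95.5 and 94 at ZT110. LHCB2.3 (AT3G27690) was at 89.7 and 88.6 FPKM at ZT94 and 125 and 157 at ZT98, against 15.4 and 21.1 at ZT106 and 7.09 and 8.44 at ZT110. These genes were highest at ZT98, still high at ZT102 and lowest at ZT110, and their dawn and dusk libraries were separate. The differences were 2.66 ± 0.15 and 3.13 ± 0.18, with limma adjusted p of 9.81e-06 and 7.62e-06. LHCB1.1, next to LHCB1.2 on the chromosome, had the largest dawn-high difference of all named genes (3.85 ± 0.28), but the LHCB1 and LHCB2 copies are near-identical. How shared reads were counted is not given in the sources used here, so the split between copies is uncertain. Minor antenna genes had smaller fitted differences, of 0.77 ± 0.10 for LHCB5 and 0.50 ± 0.12 for LHCB6, and the photosystem I antenna genes LHCA4 and LHCA1 by 1.21 ± 0.12 and 1.16 ± 0.13.

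Other photosynthetic genes were called less widely, a contrast between lists that was not tested. Of 29 tested genes of photosystem cores and electron transport 6 were dawn-high and 1 dusk-high (median 0.28). The dawn-high differences lay between 0.46 for PSBP1 and 0.67 for PSAN, both subunits of the photosystems. FNR2, a ferredoxin reductase gene, was dusk-high by -0.57 ± 0.10. The 7 calls became 4 without ZT110 replicate 1, 3 without ZT110 replicate 2 or ZT94 replicate 2, and 2 without ZT98 replicate 2. They numbered 1 with ZT94 against ZT106 alone, 4 with 2 groups of 4 and 12 with the replicate block. Among 16 Calvin cycle genes 3 were dawn-high, the aldolase gene FBA1 by 0.89 ± 0.11, GAPA2 by 0.56 ± 0.083 and rubisco activase RCA by 0.55 ± 0.13. The RCA call remained in the fit without ZT98 replicate 1 and in none of the other 7 fits without 1 library. In chlorophyll synthesis 4 of 14 tested were dawn-high, CAO, which makes chlorophyll b (1.02 ± 0.081), GUN5 (0.92 ± 0.17), GUN4 (0.63 ± 0.081) and CRD1 (0.47 ± 0.11). PORB, a light-dependent protochlorophyllide reductase gene, was dusk-high (-0.84 ± 0.12). These 5 calls fell to 3 without ZT110 replicate 1, ZT94 replicate 2 or ZT98 replicate 2, and to 3 with either pair of times alone or with 2 groups of 4.

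Starch is made and broken down by separate sets of enzymes. Of 15 tested genes of starch breakdown 9 were dusk-high and none dawn-high (median -0.53). ISA3 (AT4G09020), a debranching enzyme, was at 23.9 and 28.7 FPKM at ZT106 and 18 and 20.03 at ZT110, against 7.61 and 6.78 at ZT94 and 10.7 and 9.48 at ZT98. PHS2 (AT3G46970), the cytosolic glucan phosphorylase, was at 29.97 and 45.1 FPKM at ZT106 and 22.7 and 25.9 at ZT110, against 7.7 and 8.2 at ZT94 and 11.6 and 12.5 at ZT98. Dawn and dusk libraries were separate in both, with the highest values at ZT106. The differences were -1.29 ± 0.087 and -1.51 ± 0.12. The glucan kinases PWD (-1.17 ± 0.081) and GWD1 (-1.16 ± 0.12), which phosphorylate starch before its breakdown, DPE1 (-0.88), PHS1 (-0.78), the glucan phosphatase SEX4 (-0.65), the β-amylase BAM3 (-0.53) and DPE2 (-0.51) complete the 9. With ZT98 against ZT110 alone 5 members were called. Of 17 tested starch synthesis genes 3 were dawn-high and 2 dusk-high (median -0.0044). GBSS1 (AT1G32900), the granule-bound synthase that makes amylose, was at 14.5 and 16.5 FPKM at ZT94 and 18.6 and 20.8 at ZT98, against 3.79 and 5.55 at ZT106 and 5.17 and 5.92 at ZT110, a difference of 1.61 ± 0.14. SS1 (0.45 ± 0.061) and SBE2.2 (0.32 ± 0.068) were also dawn-high, and SBE2.1 (-0.72 ± 0.09) and SS4 (-0.53 ± 0.075) dusk-high. These 5 calls became 3 with either pair of times alone.

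In nitrate and sulfate assimilation 3 of 13 tested genes were dawn-high. The nitrate reductase gene NIA1 (AT1G77760) was at 91.8 and 88.6 FPKM at ZT94 and 64.2 and 71.2 at ZT98, against 36 and 27.8 at ZT106 and 72.7 and 68.7 at ZT110. The ZT110 values of NIA1 were above its lower ZT98 value, so the sides overlapped, although the difference of 0.71 ± 0.086 passed the test (limma adjusted p = 0.00116). NIA2 (0.51 ± 0.13) and the sulfate-reducing APR2 (0.39 ± 0.077) passed as well. With ZT98 against ZT110 alone the differences turned to -0.063 for NIA1, -0.13 for NIA2 and -0.082 for APR2. The list had 1 call in that comparison, 6 with ZT94 against ZT106 alone, 0 with 2 groups of 4 and 5 with the replicate block. The 3 calls fell to 1 without ZT110 replicate 2, ZT94 replicate 2 or ZT98 replicate 2. In flavonoid and phenylpropanoid synthesis 5 of 23 tested were dawn-high, among them PAL2 (0.64 ± 0.10) and C4H (0.42 ± 0.067), the enzymes at the head of the pathway, and F3H (0.92 ± 0.15). F3H overlaps the long non-coding RNA gene AT3G51238, whose difference was 0.92 ± 0.15 and whose reads cannot be told from those of F3H here. Among other genes given with values, LNK2, COL1 and TCP3 also overlap a neighbour called in the same direction, so their reads may be shared. The 5 flavonoid and phenylpropanoid calls fell to 3 without ZT106 replicate 1, either ZT110 replicate, ZT94 replicate 1 or ZT98 replicate 1. They numbered 11 with ZT94 against ZT106 alone, 1 with ZT98 against ZT110 alone, where F3H turned to -0.42, 1 with 2 groups of 4, and 3 without the level filter or when the 8 libraries were fitted as 4 times. None of 20 glucosinolate genes was called, but 2 were dusk-high with the replicate block and 1 was called with the 8 libraries as 4 times.

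**Figure D4:**
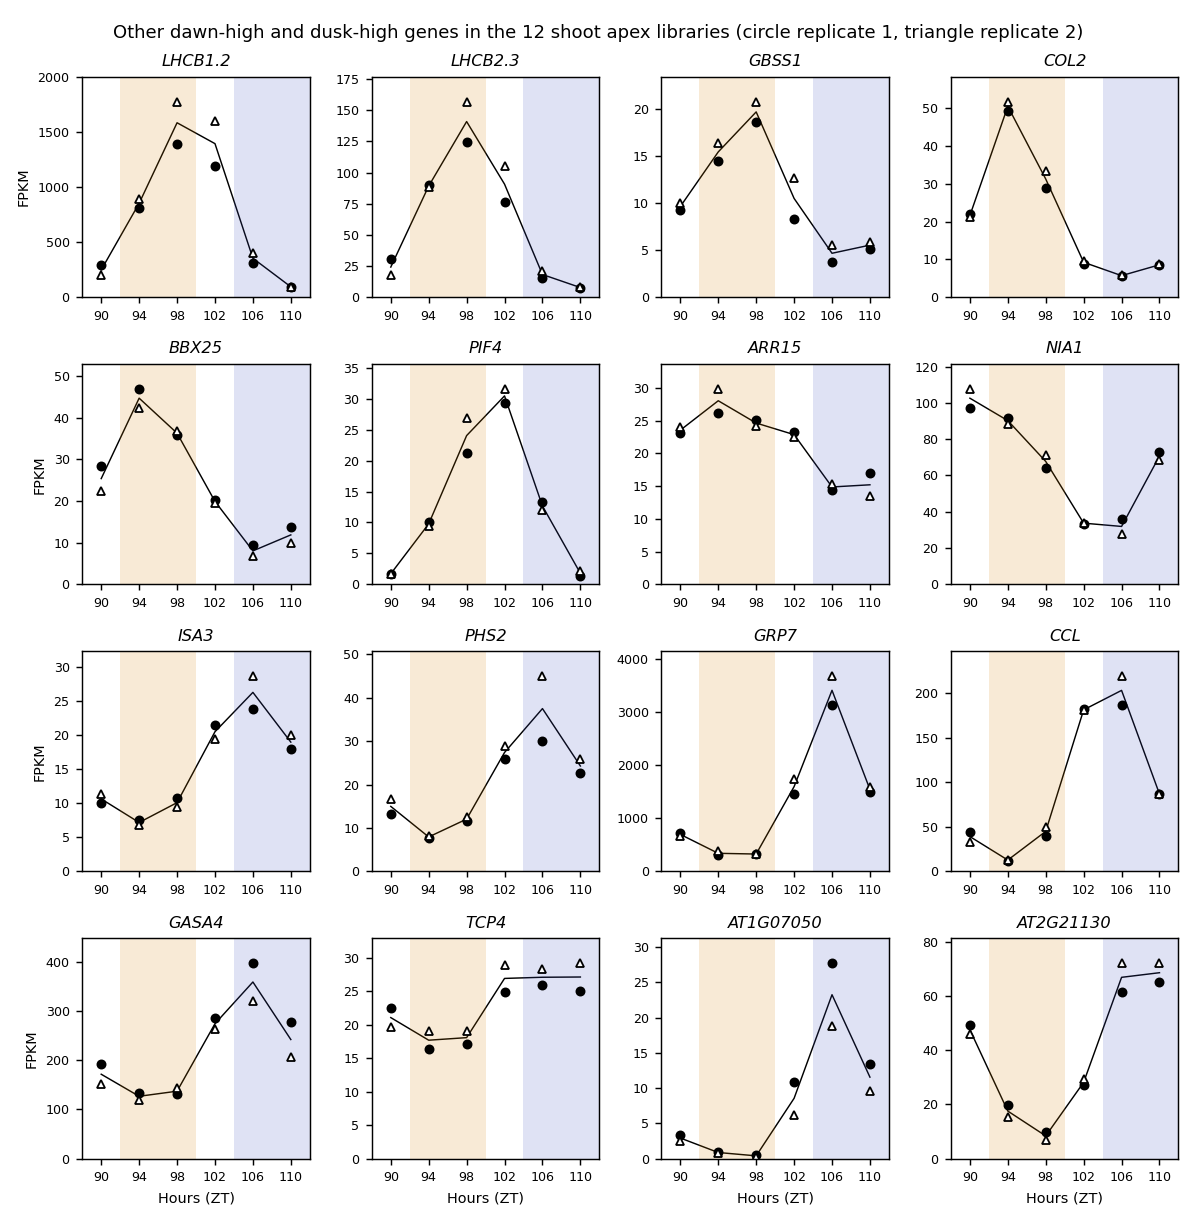
FPKM (vertical, from 0) against hours in constant light (horizontal) for 16 other genes named in the text, drawn as the clock genes were, with circles and triangles for replicates 1 and 2, lines through time means, and orange and blue bands for dawn and dusk times. Antenna and B-box genes stand high in the orange band, while ISA3, PHS2, GRP7, CCL and GASA4 stand high in the blue band.

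In the lists of meristem identity and cell division no tested member was called. Of all tested genes 5.08% were called, a share at which lists of this size hold few calls. None of 22 tested meristem and boundary genes was called, and their differences lay between -0.27 and 0.25 (median 0.037). STM, which keeps meristem cells undifferentiated, had -0.12 ± 0.10, and the boundary gene CUC2 had 0.25 ± 0.084. None of 22 mitosis genes (from -0.21 to 0.12) and none of 25 genes of DNA replication and the G1-S step (from -0.15 to 0.18) was called either. In ribosome and nucleolus genes 1 of 14, the fibrillarin gene FIB2, was dawn-high (0.47 ± 0.12). It was called in the fit without ZT106 replicate 1 and in none of the other 7 fits without 1 library, and not with either pair of times alone, 2 groups of 4, 4 times, no filter or robust empirical Bayes.

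Of 25 tested genes of leaf primordia and their growth 4 were dusk-high and none dawn-high. TCP4 (AT3G15030), which promotes the exit of leaf cells from division, was at 25.9 and 28.3 FPKM at ZT106 and 25 and 29.2 at ZT110, against 16.4 and 19 at ZT94 and 17.1 and 19.1 at ZT98, so its sides were separate though close (-0.57 ± 0.09). The related TCP3 (-0.46 ± 0.092) and the growth-regulating factors GRF1 (-0.36 ± 0.069) and GRF5 (-0.34 ± 0.071) were the other 3. The 4 calls became 1 without either ZT94 replicate and 2 without ZT106 replicate 2, ZT110 replicate 2 or either ZT98 replicate, and 1 with ZT98 against ZT110 alone, and GRF1 was lost after rescaling.

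Of 23 tested cytokinin genes 8 were dawn-high and 1 dusk-high (median 0.15). ARR15 (AT1G74890), one of the type-A response regulators that cytokinin induces and that damp its signal, was at 26.2 and 29.9 FPKM at ZT94 and 25.1 and 24.2 at ZT98, against 14.5 and 15.3 at ZT106 and 16.9 and 13.5 at ZT110. All dawn values were above all dusk values (0.77 ± 0.08). ARR6 (0.70 ± 0.15), ARR8 (0.62 ± 0.11), ARR4 (0.58 ± 0.088), ARR5 (0.52 ± 0.12) and ARR9 (0.32 ± 0.072) belong to the same class. The oxidase gene CKX5 (0.58 ± 0.072), which degrades cytokinin, and the synthesis gene IPT3 (0.34 ± 0.082) were the other 2 dawn-high genes, and LOG3, which activates cytokinin, was dusk-high (-0.42 ± 0.097). The 9 calls fell to 4 without either ZT106 replicate, either ZT94 replicate or ZT98 replicate 1, and to 5 without ZT110 replicate 2. They numbered 1 with ZT98 against ZT110 alone, 8 with ZT94 against ZT106 alone, 4 with 2 groups of 4 and 5 with the 8 libraries as 4 times.

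The other hormone lists held 1 to 3 calls each, where 5.08% of all tested genes were called. Of 20 gibberellin genes GASA4 (AT5G15230), a gibberellin-induced gene of the apex, was dusk-high at 398 and 321 FPKM at ZT106 and 278 and 206 at ZT110, against 134 and 120.0 at ZT94 and 131 and 143 at ZT98 (-1.15 ± 0.12). The list had 0 calls with ZT98 against ZT110 alone and 3 with the replicate block, 2 of them dawn-high. Of 29 auxin genes PID, a kinase that directs auxin transporters, was dusk-high by -0.41 ± 0.078, a call lost without ZT106 replicate 2, ZT110 replicate 1, ZT94 replicate 2 or ZT98 replicate 2. The auxin list had 3 calls without ZT106 replicate 1, 0 with ZT94 against ZT106 alone or with 2 groups of 4, and 5 with the replicate block (1 dawn-high and 4 dusk-high). Of 22 brassinosteroid and abscisic acid genes ABI5, an abscisic acid response factor, was dusk-high (-0.96 ± 0.15). ABA1 and CYP707A3, which make and degrade abscisic acid, were dawn-high by 0.71 ± 0.17 and 0.78 ± 0.19, each called in just 1 of the 8 fits without 1 library. These 3 calls became 5 without ZT106 replicate 1 and 1 without either ZT110 replicate, ZT94 replicate 2 or ZT98 replicate 2. They numbered 6 with the replicate block, 0 with ZT98 against ZT110 alone, and 1 with 2 groups of 4, with 4 times, with no filter or with the stricter filter. Of 21 jasmonate genes JAZ9 was dawn-high (0.89 ± 0.20), a call that every fit without 1 library lost, and the list had 4 calls with the replicate block (2 in each direction), and 0 with either pair of times alone or without the filter.

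Of 13 tested cold-response genes 3 were dusk-high and 1 dawn-high, rising to 7 calls without ZT106 replicate 1 and to 7 with the replicate block (6 dusk-high), and falling to 2 with ZT98 against ZT110 alone or the stricter filter. COR15B (AT2G42530), a chloroplast-protecting protein gene, was at 5.25 and 13.7 FPKM at ZT106 and 3.19 and 5.15 at ZT110, against 0.641 and 0.337 at ZT94 and 0.607 and 0.098 at ZT98. Its dawn values were all under 1 FPKM and the ZT106 replicates were far apart (-2.31 ± 0.26). COR47 (-1.02 ± 0.18) and COR413-PM1 (-0.79 ± 0.14) were also dusk-high. GOLS3 (AT1G09350), a galactinol synthase, was dawn-high at 4.52 and 3.97 FPKM at ZT94 and 5.79 and 4.48 at ZT98, against 0.841 and 1.02 at ZT106 and 0.47 and 0.471 at ZT110 (1.75 ± 0.12). In heat shock genes HSP18.2 alone of 13 was dawn-high (0.70 ± 0.17), called in the fit without ZT106 replicate 1 and in none of the other 7, nor with either pair of times alone or without the filter. None of 14 touch genes and none of 11 salicylate genes was called, but without ZT94 replicate 1 the salicylate list had 1 call. Of 16 senescence and sugar starvation genes DIN10 (1.22 ± 0.26) and TPS9 (0.53 ± 0.11) were dawn-high. These 2 calls became 5 without ZT98 replicate 1, 1 without ZT106 replicate 1 and 0 without each of the other 6 libraries. They numbered 5 with ZT98 against ZT110 alone, 5 with the replicate block, 1 without the filter, and 0 with ZT94 against ZT106 alone or with 2 groups of 4. Of 24 wall and expansion genes the aquaporin gene PIP2;1 was dawn-high (1.03 ± 0.11) and the expansin gene EXPA3 dusk-high (-0.63 ± 0.10), and 1 call was made with 2 groups of 4.

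**Figure D5:**
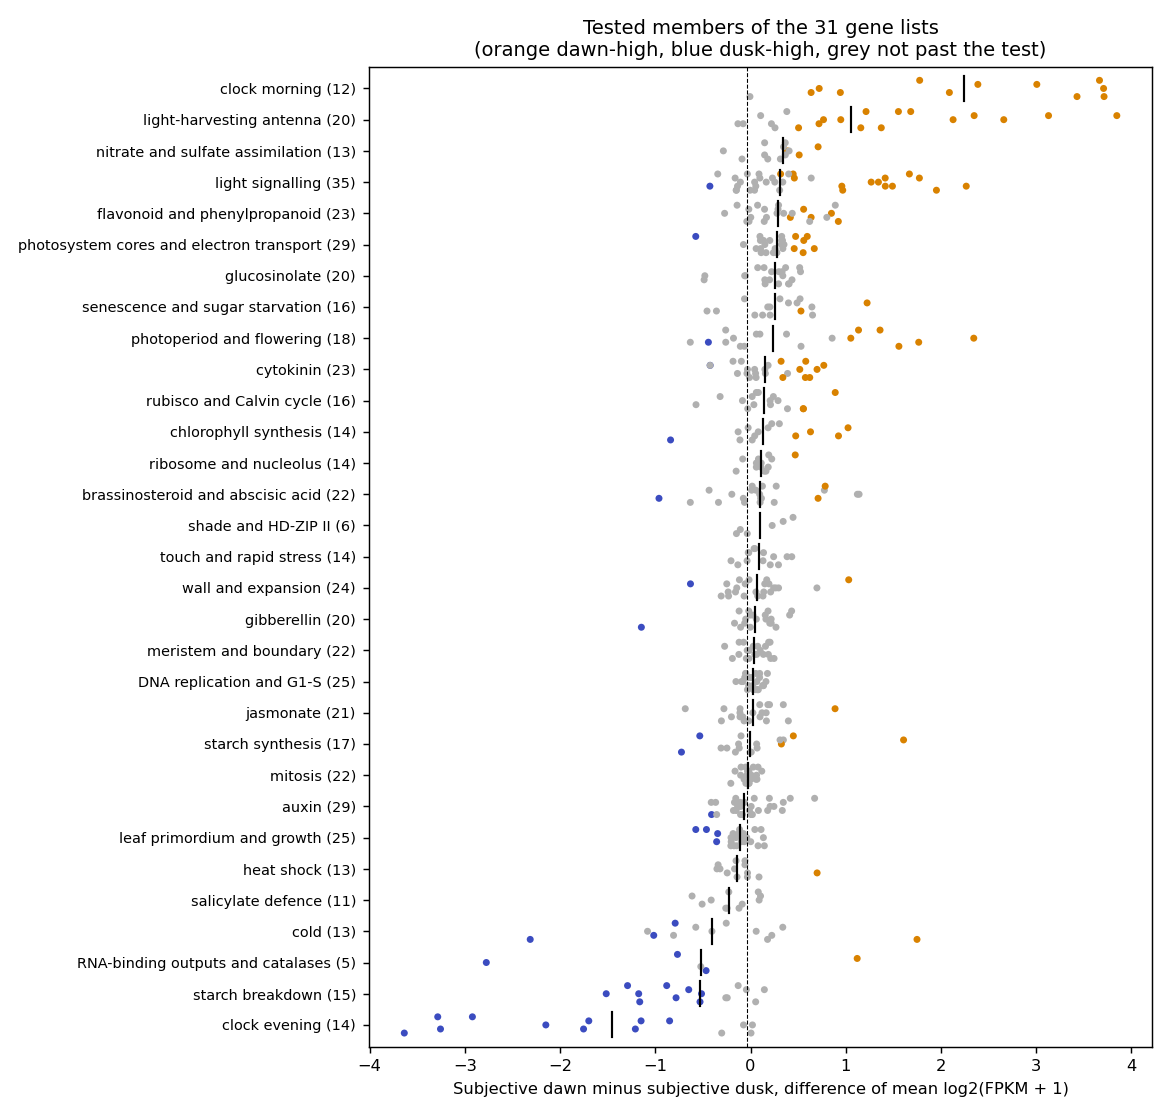
Difference between subjective dawn and subjective dusk (horizontal, log2(FPKM + 1)) for each tested member of 31 gene lists, with the number tested in brackets. Dots are genes, coloured by whether they were called, black bars are list medians, the dashed line is the median of all tested genes at -0.036, and the clock lists lie at opposite ends with medians of 2.24 and -1.45.

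Within each side few genes passed the threshold between the pair of times. These comparisons set 2 libraries against 2, where dawn versus dusk set 4 against 4, so their standard errors were larger. Few calls therefore do not show that the times were alike. RVE2 and CCA1, for example, fell from ZT94 to ZT98 in the values above without being called. Between ZT94 and ZT98 limma called 4 genes (0.0208% of those tested), all higher at ZT98, and 1359 had an unadjusted p under 0.05. They were PRR7, PIF4, CCL and the peroxidase gene AT2G37130, with ZT94 minus ZT98 differences of -1.33 ± 0.12, -1.21 ± 0.14, -1.73 ± 0.15 and -1.68 ± 0.13. The count was 2 without ZT94 replicate 1, 0 without ZT94 replicate 2, 11 without ZT98 replicate 1 and 1 without ZT98 replicate 2, and 95 with the replicate block. AT2G37130 was also dusk-high overall (-1.09 ± 0.092) with overlapping sides, at 13.9 and 14.3 FPKM at ZT106 and 10.5 and 11.4 at ZT110, against 2.47 and 2.59 at ZT94 and 11.1 and 9.61 at ZT98.

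Between ZT106 and ZT110 limma called 26 genes (0.135%), 13 in each direction, with 1379 at an unadjusted p under 0.05, and 22 of the 26 were also called between dawn and dusk. PIF4 differed most among those named, with a ZT106 minus ZT110 difference of 2.3 ± 0.14, followed by LHCB1.2 (1.88 ± 0.22), PRR7 (1.42 ± 0.12), the invertase inhibitor-like gene AT5G62360 (1.37 ± 0.18) and CCL (1.21 ± 0.15). LHY (-1.70 ± 0.17), F3H (-1.62 ± 0.21), NIA1 (-1.13 ± 0.12) and the sulfate transporter gene SULTR3;5 (-1.04 ± 0.15) were already higher at ZT110 than at ZT106. The count was 5 without ZT106 replicate 1, 8 without ZT106 replicate 2, 1 without ZT110 replicate 1, 4 without ZT110 replicate 2 and 165 with the replicate block.

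The 12 shoot apex libraries also placed the peak of each called gene among 6 times. Of the 419 dawn-high genes 170 had their highest time mean at ZT94, 200 at ZT98, 24 at ZT90 and 25 at ZT102. Of the 560 dusk-high genes 338 were highest at ZT106, 147 at ZT110, 67 at ZT102 and 8 at ZT90. Dawn-high genes were thus spread over both dawn times, whereas dusk-high genes were most often highest at ZT106. These counts describe the same libraries that called the genes and carry no test.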

How the data were processed

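Polyadenylated RNA of the shoot apex was sequenced as single-end 50 base reads, and FPKM values per gene for 33323 genes were deposited by the authors in 1 table. STAR 2.5.0c and HOMER were run on TAIR10, per the submitters' processing notes. Their settings, strand use and the counting of shared reads are not given in the sources used here. The 12 leaf columns were not used. From the FPKM, log2(FPKM + 1) was computed for genes with at least 1 FPKM in at least 2 of the 12 shoot apex libraries (19275 genes). All 12 libraries were fitted as 6 time groups of 2 in limma 3.58.1 under R 4.3.3, with a trend in the empirical Bayes step, and the contrast was the mean of ZT94 and ZT98 minus that of ZT106 and ZT110. P-values were adjusted by Benjamini-Hochberg over all tested genes, with a threshold of 0.05. ZT94 was also compared with ZT98, and ZT106 with ZT110. Since the labels tie no replicate to an experiment, p-values measure the spread between these libraries, which may be partly technical.

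Replicate numbers were taken to pair the libraries, because the deviations of same-numbered libraries from their time means correlated at 0.172 to 0.45 in all 15 pairs of times. The members and the 31 gene lists (617 genes) were chosen with earlier results of these data known, so no list carries a test. Named were the 12 largest non-overlapping differences in each direction (mean of at least 5 FPKM in the higher side), every tested clock gene, up to 4 called members of each other list by adjusted p and those against its majority, and up to 5 genes each way of the within-side comparisons. Further called list members are named to complete a count, after their values were seen.

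The alternatives tried were no filter, a pseudocount of 0.1, a mean of at least 5 FPKM, libraries rescaled by the median ratio, the replicate block, robust empirical Bayes, leaving out each library, fits to the 8 libraries alone, and single times of each side. Simulated data for this comparison on 19275 genes returned 68 of 100 genes changed by 0.5 log2, 86 of 100 changed by 1 log2 and 8 of 19075 unchanged genes. The changed genes were drawn from those above 5 FPKM on the log scale. Noise was normal and independent between libraries, and unchanged genes had the same mean at every time. These rates therefore do not cover changed genes of lower level or the correlation between same-numbered libraries. Depth was estimated from the step between low FPKM values. Gene symbols and upstream sequence came from RefSeq on TAIR10.1, by locus ID; 10 listed symbols had no entry. Values were tabulated in pandas 2.3.3 and numpy 2.4.6 and drawn in matplotlib 3.10.9, under Python 3.11.15.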

Additional observations from a re-analysis of the deposited data

Results flagged for a closer look

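Of 214 groups of 4 libraries from one side of a gene named by the rule above, 5 held a library that stood far from the other 3. The rule's nominal rate of about 1 in 20 assumes 4 libraries of the same kind. Each group here mixed different times, so the count cannot be set against that rate. At dawn, CKX5 was at 7.59 FPKM in ZT94 replicate 2, above the others. RVE1 was low at 9.15 FPKM in ZT98 replicate 1, and PRR3 was low at 1.66 FPKM in ZT98 replicate 2. At dusk, LOG3 was low at 2.08 FPKM in ZT110 replicate 2, and TCP21 was high at 42.8 FPKM in ZT106 replicate 1. CKX5, RVE1 and PRR3 were called in each of the 8 fits without 1 library. LOG3 was called in the fit without ZT110 replicate 2 and lost in the other 7, and TCP21 was not called.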

How the results depend on the processing

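The count of calls between dawn and dusk (979, 419 and 560) moved by over 1.5 times with the replicate block, to 1973 (796 dawn-high, 1177 dusk-high), and with ZT98 against ZT110 alone, to 402 (185 and 217). With the 8 libraries as 2 groups of 4 the dawn-high count was 272. Without 1 library it lay between 539 and 880 in all, between 220 and 389 dawn-high and between 315 and 491 dusk-high. The replicate block, the pairing by number, removed no named call. For ZT94 against ZT98 (4 calls, 0 and 4) the block gave 95 (49 higher at ZT94, 46 at ZT98), no filter 7 with 1 higher at ZT94, rescaling 9 (1 and 8), a pseudocount of 0.1 gave 1 higher at ZT94, and leaving out 1 library 0 to 11, with 0 higher at ZT94 and 0 to 11 at ZT98. For ZT106 against ZT110 (26, 13 each way) the block gave 165 (63 higher at ZT106, 102 at ZT110), rescaling 54 (31 and 23), no filter 14 (7 and 7), and leaving out 1 library 1 to 8, with 1 to 4 higher at ZT106 and 0 to 4 at ZT110. Those fits have fewer libraries, and the cause of the other moves was not tested.

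Of the 107 genes named by the rule above 102 were called, and 53 of these under every alternative. Genes named outside that rule, such as those that complete a count, are not among the 107. ZT98 against ZT110 alone lost 38, the 2 groups of 4 27, ZT94 against ZT106 alone 19, no filter 11 and rescaling 2. With ZT98 against ZT110 alone the difference turned to 0.21 for CAT3, 0.74 for GI, -0.13 for NIA2, -0.082 for APR2, -0.063 for NIA1, 0.28 for BBX22, -0.41 for AT3G51238, -0.42 for F3H, -0.31 for UGT78D2 and -0.11 for SULTR3;5. With ZT94 against ZT106 alone it turned to -0.34 for PIF4, -0.43 for PRR7 and 1.16 for RVE2. These alternatives drop a time on each side, and GI, RVE2, PIF4 and PRR7 had their highest time mean outside the 4 times compared. At the estimated depth, low FPKM rests on few reads, and detection by expression level was not measured.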

Other observations

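Called genes were sometimes neighbours. Of 19182 pairs of tested genes next to each other on a chromosome, 75 were called in the same direction and 18 in opposite directions, and 26 of these pairs overlapped, so that reads may have been shared. Of all tested genes 2.17% were dawn-high and 2.91% dusk-high, and some such pairs arise from these shares alone. How many was not worked out, nor how many of all pairs overlap, so the counts carry no test. The following pairs were picked after their values were seen. On the dawn side LHCB1.1 stood next to LHCB1.2, and CAO next to the photoprotection gene PSBS. On the dusk side the chromatin protein genes HMGB2 and HMGB3 stood next to each other. The dawn-high genes held 404 protein-coding genes, 7 long non-coding RNA genes and 1 miRNA gene, and the dusk-high genes 548 protein-coding and 4 long non-coding RNA genes. The remaining called genes were of other types or had no annotated type. The tested genes as a whole held 18464 protein-coding, 197 long non-coding RNA and 55 miRNA genes, and no difference in type was tested. Among all 19275 tested genes, 55 shared all 12 values with another gene, and 5 of these were called.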
